A study of Mus musculus with 282 samples.

Results

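The BXD family is a set of recombinant inbred mouse strains made by crossing C57BL/6J with DBA/2J and inbreeding the descendants until each strain was homozygous at nearly every locus, so that a strain carries at each position either the C57BL/6J or the DBA/2J allele. The strains were made in separate rounds. The early rounds, whose names end in TyJ, were bred from intercrossed first-generation hybrids, and most strains of the later rounds, with names ending in RwwJ, came from advanced intercrosses that had passed through more generations of recombination before inbreeding. The 2 sets therefore descend from the same parents but from different founder animals of those stocks, and any change that arose in a parental stock between the rounds can be present in one set and missing from the other.

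Here the hypothalamus transcriptomes of both sets were compared, with the strain as the unit. The members were found by the suffix of their column name: 18 early strains (51 mice, strain numbers 5 to 40) and 25 later strains (75 mice, strain numbers 43 to 87), together 43 of the 99 strains of the series, which holds 282 mice. All mice were males on a high fat, high sugar diet, and RNA of the hypothalamus, the brain region that controls feeding, body temperature, daily rhythm and pituitary hormones, was sequenced. Of the early strains, 3 had 2 mice and 15 had 3, and every later strain had 3. Parental values came from 3 C57BL/6J and 3 DBA/2J mice. Expression was given as FPKM (fragments scaled to transcript length and to the mapped fragments of the library), and differences were taken between strain means of log2(FPKM + 1), always as later minus early.

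Some properties of the libraries differ between the sets. The running mouse number in the column names was below that of every later mouse in 47 of the 51 early mice, inside the later range in 2 and above it in 2, so that the set and whatever followed the running number cannot be told apart. The library of mouse OB-547, of early strain BXD-12/TyJ, stood apart with a summed FPKM of 792800, against 324150 to 354130 in the other early mice and 324390 to 359920 in the later mice. The FPKM values carry no read counts, so depth is not known from them and no counting error could be given. The study's sample list gives mapped reads and the uniquely mapped percentage of each library. These were used only as covariates in an alternative fit.

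The average hypothalamic expression of the sets was close for most genes. Of 14079 genes, 0 (0%) differed at an adjusted p below 0.05 in limma's moderated test with Benjamini-Hochberg adjustment, the smallest adjusted p being 0.140. At an unadjusted p below 0.05 there were 1135 genes (8.06%), of which 415 (2.95%) were higher and 720 (5.11%) lower in the later strains. No call was made either with a Wilcoxon rank sum test (986 genes at an unadjusted p below 0.05) or with a limma trend. A fit on single mice with strain as a random block called 77 genes, at a within-strain correlation of 0.163 that this fit takes to be the same for every gene. Among 51024 transcripts 0 (0%) passed limma's adjusted threshold, with 3128 (6.13%) at an unadjusted p below 0.05, 2.59% higher and 3.55% lower in the later strains.

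The size of the differences was limited by these data as well. The median absolute difference over genes was 0.04 on the log2 scale and its 95th percentile was 0.14. The 95% confidence interval of the difference lay wholly within 0.2 of zero for 11593 genes (82.3%). The median difference was -0.0028, and 57 genes differed by more than 0.5 and 10 by more than 1. The parents, in contrast, differed at an adjusted p below 0.05 in 968 genes (6.88%), with 464 (3.30%) higher and the rest (3.58%) lower in DBA/2J. Of the 1135 genes at an unadjusted p below 0.05 between the sets, 114 (10%) were also called between the parents.

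The genes with the smallest p were mostly processed pseudogenes, that is, intronless copies of messenger RNAs put back into the genome. Gm8420 on chromosome 1 (mm10, 51940650 to 51941261) and Gm10020 on chromosome 15 (52477614 to 52478228) are copies of Rpl15, a protein of the large ribosomal subunit. XLOC_028810 on chromosome 5 (117058858 to 117059850) overlaps Gm7478, a copy of the ubiquitin-conjugating enzyme gene Ube2e1. Over the annotated pseudogenes (GENCODE M21), Gm8420 was identical to its closest gene at 96.6% of aligned bases, Gm10020 at 99.7% and Gm7478 at 96.2%. Beside them stood XLOC_026862, which overlaps Gm5292, and XLOC_004125, which overlaps Gm18119. Both are again Rpl15 copies, identical at 96.0% and 97.2% of bases. The same 120 coding bases of Rpl15, positions 99 to 218 counted from the A of the start codon, are given here with the 4 copies, because a read can be told apart only where it covers a base that differs. Capitals mark the bases that differ from Rpl15.
Rpl15: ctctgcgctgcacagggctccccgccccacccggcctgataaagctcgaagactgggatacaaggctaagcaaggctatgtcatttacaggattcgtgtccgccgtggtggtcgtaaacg
Gm8420: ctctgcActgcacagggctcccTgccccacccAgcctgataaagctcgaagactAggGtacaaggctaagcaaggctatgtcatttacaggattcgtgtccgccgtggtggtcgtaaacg
Gm10020: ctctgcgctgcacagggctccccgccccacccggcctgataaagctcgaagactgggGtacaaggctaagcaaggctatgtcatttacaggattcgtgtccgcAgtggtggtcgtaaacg
Gm5292: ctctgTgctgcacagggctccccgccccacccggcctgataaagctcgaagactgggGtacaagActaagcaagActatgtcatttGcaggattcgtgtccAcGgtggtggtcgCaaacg
Gm18119: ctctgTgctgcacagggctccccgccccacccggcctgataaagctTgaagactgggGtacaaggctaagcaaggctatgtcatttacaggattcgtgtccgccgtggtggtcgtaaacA
Gm10020 differs from Rpl15 at 2 of these bases, Gm18119 at 4, Gm8420 at 5 and Gm5292 at 8. Reads from a copy so close to its source can be assigned to either, so the levels of these loci are uncertain.

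Gm8420 was near zero or clearly present, with nothing between. Among the early strains 12 of 18 had 1.38 to 4.11 FPKM and the other 6 had 0 to 0.124 FPKM. Among the later strains 3 of 25 had 1.48 to 2.99 FPKM and the other 22 had 0 to 0.169 FPKM. All 3 C57BL/6J mice were listed at 0 and the DBA/2J mice had 2.44, 3.64 and 3.69 FPKM. The strains with the higher listed level were thus those on the DBA/2J side of the parental midpoint (halfway between the parents on the log2 scale). The difference between the sets was -1.08 (SE 0.22, adjusted p = 0.140), with a 95% interval of -1.52 to -0.64. It did not pass the adjusted threshold in limma, and the ranges of both sets overlap because each holds strains of both kinds.

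Gm10020 split the strains in the same way. Its level was 2.77 to 4.84 FPKM in 12 early and 3.18 to 4.54 FPKM in 3 later strains, and at most 0.0962 FPKM in the remaining 28, a difference of -1.26 (SE 0.27, adjusted p = 0.140). XLOC_028810 had 1.04 to 2.99 FPKM in 12 early and 1.83 to 2.44 FPKM in 3 later strains, and at most 0.118 FPKM elsewhere, a difference of -0.88 (SE 0.20, adjusted p = 0.140). All 43 strains fell on the same side of the parental midpoint for Gm8420, Gm10020 and XLOC_028810, although the loci are on chromosomes 1, 15 and 5. The early strains on the DBA/2J side were numbers 6, 9, 11, 15, 16, 19, 21, 24, 32, 36, 39 and 40, and the later ones were BXD44, BXD48 and BXD75.

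The genes from which these copies derive lie together on proximal chromosome 14, Rpl15 at 18266235 to 18271216 and Ube2e1 at 18282722 to 18331859 (mm10, deposited positions). Thoc7, a subunit of the THO complex that couples transcription to messenger RNA export, lies at 13949004 to 13961406 on the same chromosome and put 41 of the 43 strains on the same side as Gm8420. Split at its own midpoint, Thoc7 had 42.6 to 50.4 FPKM in 12 early and 43.9 to 45.2 FPKM in 3 later strains. The other 28 had 33.9 to 41.1 FPKM, and ranges split in this way cannot overlap. These 12 early strains held BXD-12/TyJ, the strain of mouse OB-547, in place of BXD-21/TyJ in the Gm8420 group. For Thoc7 the C57BL/6J mice had 32.8, 34.6 and 35.0 FPKM and the DBA/2J mice 49.1, 49.9 and 50.2 FPKM. The sets differed by -0.16 in Thoc7 (SE 0.04, adjusted p = 0.140), a small step. Gm10704 on chromosome 3, a copy of the chromosome 14 gene Rtraf (98.6% identical), and XLOC_026862 each placed 40 of 43 strains on the same side as Gm8420. Rpl15 averaged 43.3 ± 3.78 FPKM in early strains (SD, n = 18) and 44.3 ± 2.65 FPKM in later strains (SD, n = 25), a difference of 0.04 with a 95% interval of -0.02 to 0.10. This gene level sums over transcripts that moved in both directions. They ran from -0.82 for TCONS_00107644 to 1.40 for TCONS_00107651 (adjusted p = 0.127 for each in limma), and none passed the adjusted threshold. Ube2e1 averaged 49.5 ± 4.89 and 49.2 ± 3.64 FPKM, with an interval of the difference from -0.07 to 0.07 and a sign that turned with the processing. In the stretch of chromosome 14 from 10 to 25 Mb, 9 of 44 genes (20.5%) had an unadjusted p below 0.05, against 8.06% of all genes. Its borders were chosen after the values were seen. In the 5 Mb window that holds Rpl15 and Ube2e1 the count was 2 of 13 genes (15.4%), and in the next window 3 of 24 (12.5%).

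**Figure D1:**
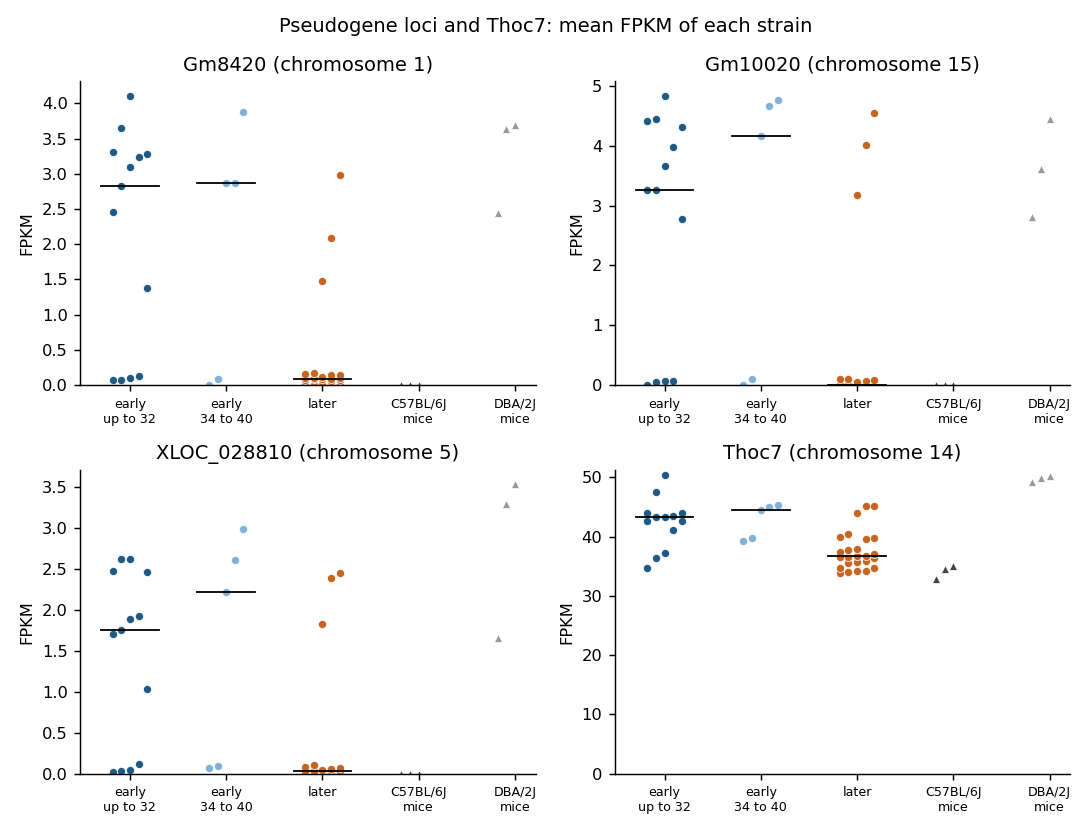
Strain mean FPKM (vertical axis, linear) of 3 pseudogene loci and Thoc7 in early strains numbered up to 32, early strains numbered 34 to 40 and later strains (dots, with the median as a line), beside single C57BL/6J and DBA/2J mice (triangles). For Gm8420, Gm10020 and XLOC_028810, 12 of 18 early and 3 of 25 later strains lie in the upper group with the DBA/2J mice, while Thoc7 shows a smaller step.

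Only 4 more genes were among the 8 with the smallest p. Rpl23a-ps3, a chromosome 14 pseudogene identical to ribosomal protein gene Rpl23a at 467 of 468 bases, had 1.95 to 9.30 FPKM in the early strains (median 3.86) and 1.31 to 4.13 FPKM in the later strains (median 2.55), a difference of -0.58 (SE 0.12, adjusted p = 0.140). XLOC_004125 differed by -0.54 (SE 0.12, adjusted p = 0.140) and the unnamed locus XLOC_019851 by 0.28 (SE 0.06, adjusted p = 0.140). Fgd6, an activator of the small GTPase Cdc42, had 2.06 to 3.47 FPKM in early and 2.72 to 3.77 FPKM in later strains, a difference of 0.17 (SE 0.04, adjusted p = 0.176). The ranges of the sets overlapped in Rpl23a-ps3 and Fgd6.

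The copy number loci of DBA/2J were unevenly spread over the sets, in opposite directions. Hdhd3, a phosphatase-like enzyme, and Alad, which makes the heme precursor porphobilinogen, are neighbours on chromosome 4 (62494737 to 62502276 and 62504540 to 62520642). DBA/2J is known to carry extra copies of this segment. Alad stood at 15.5, 15.6 and 17.9 FPKM in the C57BL/6J mice and at 33.8, 38.4 and 38.97 FPKM in the DBA/2J mice. On the DBA/2J side of the midpoint were 3 of 18 early strains (BXD-15/TyJ, BXD-24/TyJ and BXD-36/TyJ, 38.8 to 41.8 FPKM) and 19 of 25 later strains (31.9 to 42.8 FPKM). The other later strains had 12.6 to 14.1 FPKM, and the other early strains 12.4 to 31.8 FPKM, the highest of which was BXD-12/TyJ. In that strain mouse OB-547 alone had 68.1 FPKM of Alad and the other mice 13.2 and 14.02 FPKM. Hdhd3 gave the same 3 and 19 strains, with 6.94 to 10.4 FPKM against 2.13 to 4.47 FPKM. The sets differed by 0.74 in Alad (SE 0.18, adjusted p = 0.232) and by 0.79 in Hdhd3 (SE 0.19, adjusted p = 0.197), neither of which passed limma's adjusted threshold.

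Glo1, which detoxifies methylglyoxal and lies on chromosome 17 (30590263 to 30612761) in another segment known to be duplicated in DBA/2J, showed the reverse. Its level was 31.8, 34.3 and 37.5 FPKM in the C57BL/6J mice and 62.9, 70.5 and 73.3 FPKM in the DBA/2J mice. In 13 of 18 early strains the level was 62.2 to 73.3 FPKM, and in 7 of 25 later strains 59.5 to 67.6 FPKM. The other later strains had 31.0 to 35.8 FPKM and the other early strains 30.6 to 51.7 FPKM, where BXD-12/TyJ was again the highest. The difference was -0.50 (SE 0.13, adjusted p = 0.275). Btbd9, the neighbouring gene that is partly inside the segment, had 13.4 ± 1.53 FPKM in early (SD, n = 18) and 12.4 ± 1.32 FPKM in later strains (SD, n = 25), a difference of -0.11 (SE 0.05, adjusted p = 0.538). At all 4 genes the later and the early ranges overlapped, and for Alad, Hdhd3 and Glo1 the number of strains on each side differed between the sets.

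**Figure D2:**
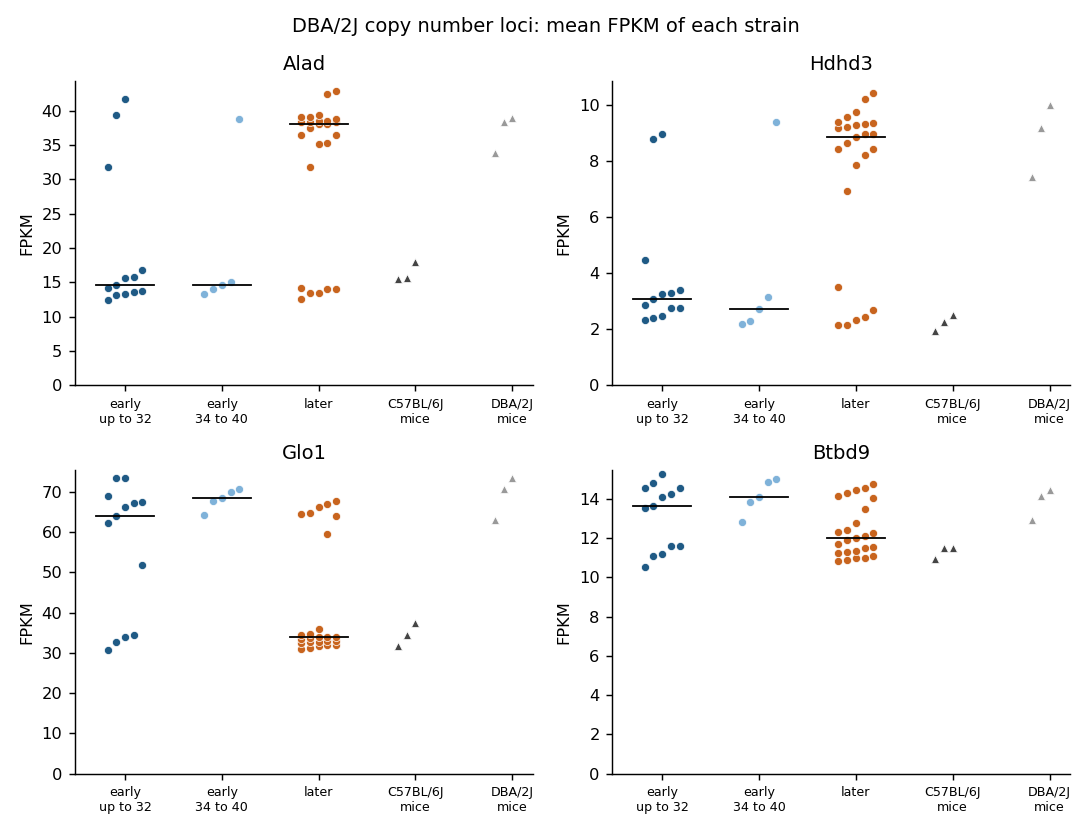
Strain mean FPKM (vertical axis, linear) of Alad, Hdhd3, Glo1 and Btbd9 in early strains numbered up to 32, early strains numbered 34 to 40 and later strains (dots, with the median as a line), beside single parental mice (triangles). Alad and Hdhd3 are at the DBA/2J level in 19 of 25 later but 3 of 18 early strains, and Glo1 in 7 of 25 later but 13 of 18 early strains.

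Some loci split the later strains but were nearly uniform in the oldest ones. Early strains numbered up to 32 come from the first breeding round and those from 34 to 40 from a second one, so they were also looked at apart. The C57BL/6J stock is known to carry variants of its own that arose after its separation from related stocks, among them a deletion in Nnt, a mitochondrial enzyme that makes NADPH, and an intronic change in Gabra2, the GABA-A receptor subunit alpha 2. Gabra2 and Gabrg1 share a single merged gene entry, which differed by -0.06 between the sets (SE 0.08, adjusted p = 0.842), so the 3 annotated or assembled transcripts of Gabra2 were summed. Summed Gabra2 was at 11.1, 11.9 and 13.7 FPKM in the C57BL/6J mice, and the DBA/2J mice had 24.1, 24.4 and 31.1 FPKM. All 13 early strains up to number 32 had 25.5 to 35.5 FPKM. Of the 5 other early strains, BXD-36/TyJ, BXD-38/TyJ and BXD-40/TyJ had 12.1 to 14.1 FPKM. Of the 25 later strains, 7 (BXD44, BXD60, BXD61, BXD64, BXD66, BXD74 and BXD86) had 11.5 to 14.2 FPKM and the others at least 27.9 FPKM. The low Gabra2 level was thus found in 0 of 13 strains of the first round, 3 of 5 of the second and 7 of 25 later ones. Gabrg1, which codes for a neighbouring subunit, had 14.4 to 21.4 FPKM in the early strains and 13.6 to 23.9 FPKM in the later strains without such a gap.

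Nnt, on chromosome 13 (119335448 to 119408997), was less sharp. The C57BL/6J mice had 5.95, 6.00 and 6.05 FPKM and the DBA/2J mice 8.35, 9.33 and 9.82 FPKM. On the C57BL/6J side of the midpoint of 7.43 FPKM were 2 of 13 early strains up to number 32, 4 of 5 early strains above it and 11 of 25 later strains. Of the first pair, BXD-12/TyJ lay near the midpoint with 7.48 FPKM, and BXD-20/TyJ had 6.20 FPKM from mice at 5.31, 5.76 and 7.51 FPKM. Sides were set on the mean of log2 values, which for BXD-12/TyJ was just under the midpoint. The mean difference of Nnt was -0.16 (SE 0.09, adjusted p = 0.644).

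Wdfy1, an endosomal protein with a lipid-binding FYVE domain, also had a gap between its groups of strains. The C57BL/6J mice had 4.77, 5.43 and 5.53 FPKM and the DBA/2J mice 15.9, 17.2 and 17.8 FPKM. The level was 15.7 to 18.4 FPKM in 16 of 18 early and 12 of 25 later strains, while BXD-20/TyJ had 6.48, BXD-38/TyJ 5.94 and the other 13 later strains 5.003 to 6.03 FPKM. The sets differed by -0.57 (SE 0.20, adjusted p = 0.464). Gm14420, a predicted gene on distal chromosome 2, was split the other way: all 13 early strains up to number 32 were on the C57BL/6J side with 2.98 to 5.72 FPKM, and 2 of the 5 other early strains and 14 of 25 later strains were on the DBA/2J side with 0.0155 to 0.216 FPKM. Gm14403 on the same chromosome and the locus XLOC_021812 gave the same strains. Tma7, a small protein linked to translation, had the lower DBA/2J level in 1 of 13, 1 of 5 and 13 of 25 strains, with 31.8 to 47.0 FPKM against 64.2 to 117 FPKM. These loci were found by a rule set after the values had been seen: of 600 genes whose parents differed by at least 0.5 at an adjusted p below 0.05, 8 had at most 1 of the 13 first-round strains off the main side and 8 to 17 later strains on the DBA/2J side, and 9 showed the reverse. Those counts are a description and were not tested.

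**Figure D3:**
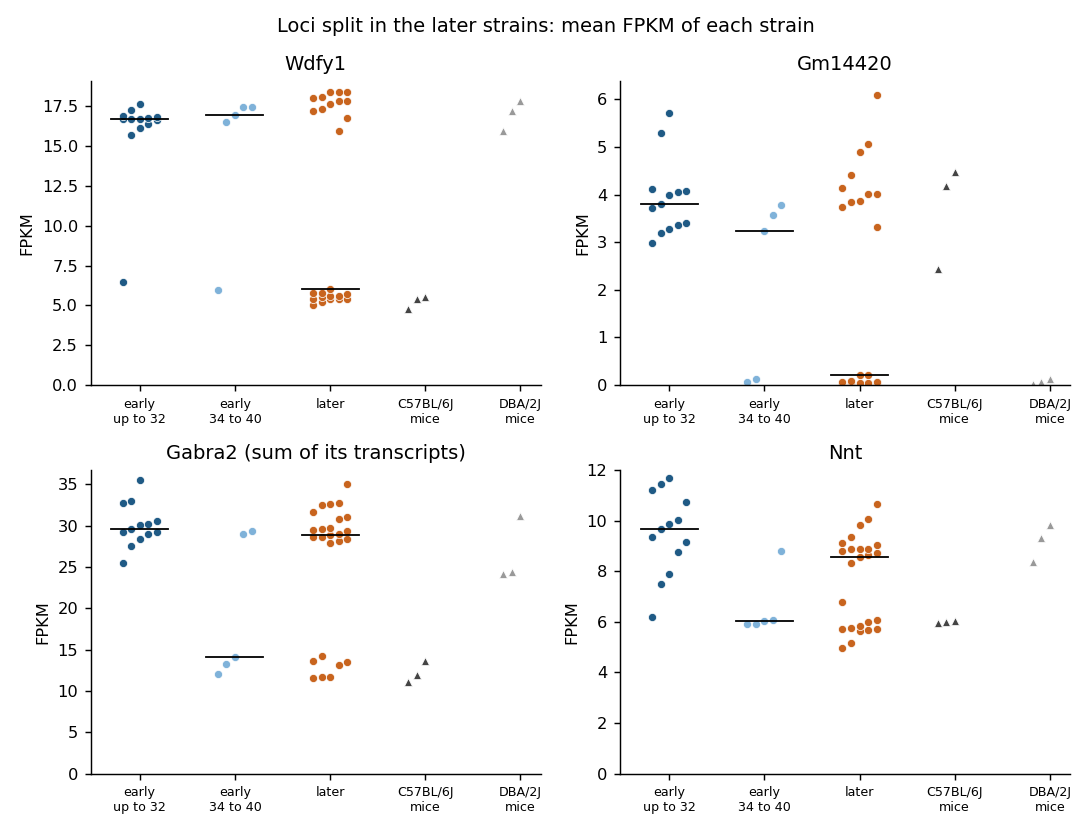
Strain mean FPKM (vertical axis, linear) of Wdfy1, Gm14420, the summed Gabra2 transcripts and Nnt in early strains numbered up to 32, early strains numbered 34 to 40 and later strains (dots, with the median as a line), beside single parental mice (triangles). The 13 strains up to number 32 form a single group for Gm14420 and Gabra2, with 1 exception for Wdfy1, while the later strains fall into both parental groups.

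Genes of low p were not evenly placed along the genome. The highest share on a chromosome was on chromosome 10, with 76 of 615 genes (12.4%), and the lowest share of an autosome on chromosome 3, with 36 of 614 (5.86%). On chromosome 10 from 85 to 95 Mb it was 14 of 51 genes (27.5%). That stretch holds Fgd6 and 3 genes whose parents differed by at least 0.5 on the log2 scale. Ntn4, a secreted netrin of the basement membrane, had 5.61 to 6.85 FPKM in 10 of 18 early and 5.76 to 6.55 FPKM in 2 of 25 later strains, and 2.54 to 3.78 FPKM in the rest, a difference of -0.38 (SE 0.10, adjusted p = 0.266). Gm872 was on the DBA/2J side in 11 of 18 early and 2 of 25 later strains, a difference of -0.33 (SE 0.08, adjusted p = 0.249). Gnptab, which makes the mannose 6-phosphate tag of lysosomal enzymes and is lower in DBA/2J, was on that side in 12 of 18 early and 4 of 25 later strains, a difference of 0.29 (SE 0.08, adjusted p = 0.249). At these 3 genes most later strains had the C57BL/6J level. The later strains on the DBA/2J side were BXD45 and BXD61 for Ntn4 and Gm872, and BXD43, BXD45, BXD51 and BXD75 for Gnptab. High shares were also found on chromosome 2 from 120 to 125 Mb (14 of 44 genes, 31.8%) and on chromosome 17 from 35 to 40 Mb (13 of 48 genes, 27.1%), the latter in the major histocompatibility complex.

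Over all genes with a wide parental gap the median shares of the sets were close, while single genes differed widely. Among genes whose parents differed by at least 1 on the log2 scale, the median share of strains on the DBA/2J side was 50% in the early and 48% in the later set. The later share minus the early share had a median of -2.44 percentage points (SD 19.3 over genes) and ranged from -54.67 for Gm8420, Gm10020 and XLOC_028810 to 59.33 for Alad and Hdhd3. The sets were within 10 points of each other for 144 of these genes, 10 to 30 points apart for 125 and more than 30 points apart for 48, of which 16 had the higher share in the later and 32 in the early set. Linked genes share strains, so these genes are not independent. BXD-12/TyJ changed side for 40 of them without mouse OB-547, and the median difference was then -2.0 points.

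**Figure D4:**
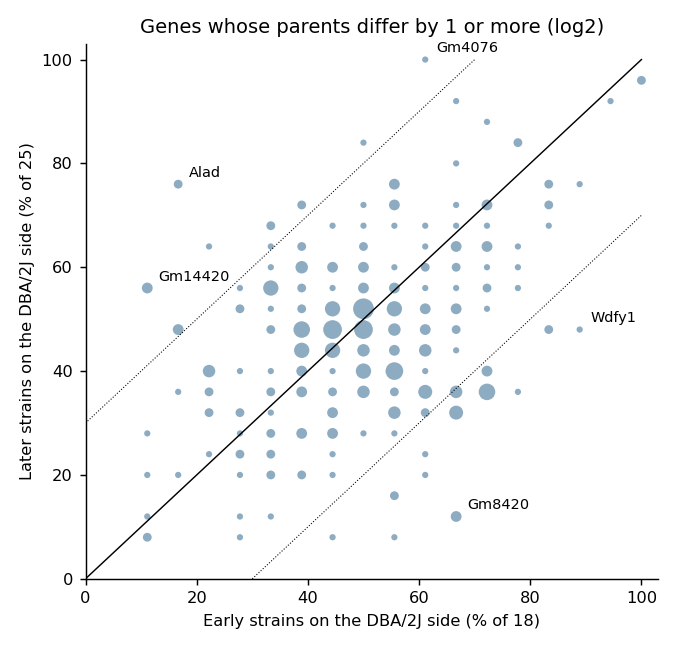
Percent of the 25 later strains on the DBA/2J side of the parental midpoint (vertical axis) against percent of the 18 early strains (horizontal axis) for the genes with a parental gap of at least 1 (log2). Larger dots hold more genes, the solid line marks equal shares and the dotted lines 30 points of difference, which 48 genes exceed, Alad far above the line and Gm8420 far below it.

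The spread among strains was also compared, by the distance of each strain from the median of its own set. At an adjusted p below 0.05, 2 genes (0.0142%) differed, both more variable among early strains. Nfib, a transcription factor of glial development, ranged from 4.47 to 7.02 FPKM in the early and from 4.87 to 6.46 FPKM in the later strains, with medians of 5.68 and 5.48 FPKM. Its mean distance from the median was 0.17 in the early and 0.06 in the later set on the log2 scale, a difference of -0.11 (SE 0.02, adjusted p = 0.0271). The mean level of Nfib differed by -0.03 (SE 0.04, adjusted p = 0.858). The spread of Nfib was not called after quantile normalisation (adjusted p = 0.0572) or with early strains up to number 32 alone (adjusted p = 0.358). Leaving out 1 strain at a time, the call of Nfib held in 24 of 43 fits and that of Gm4076 in 18 of 43. All 24 fits that called Nfib left out a later strain, and its call was lost whenever an early strain was left out. The fits that called Gm4076 were of both kinds. Where an early strain was left out, Gm4076 was called only without BXD-5/TyJ, BXD-9/TyJ, BXD-11/TyJ, BXD-20/TyJ, BXD-32/TyJ, BXD-34/TyJ, BXD-36/TyJ, BXD-38/TyJ or BXD-39/TyJ. These are the early strains below the early median of Gm4076, and leaving out any early strain above it lost the call. Leaving out an early strain moves the median from which distances are taken, so the Gm4076 call depended on where that median fell. Neither gene was called when replicate 1, 2 or 3 of the strains was left out. The 3 early strains with 2 mice have no replicate 3 and so lost no mouse in that fit. Without mouse OB-547 Nfib was still called (adjusted p = 0.0228) and Gm4076 was not (adjusted p = 0.762).

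Gm4076 on chromosome 13 (85126999 to 85127514) is a nuclear copy of the mitochondrial gene mt-Nd5, a subunit of respiratory complex I, with 95.3% identity over 953 aligned bases. It ranged from 0.0042 to 210 FPKM (median 25.9) in the early strains and from 0.0024 to 41.4 FPKM (median 1.93) in the later strains. The spread differed by -1.72 (SE 0.34, adjusted p = 0.0485) and the level by -1.99 (SE 0.64, adjusted p = 0.422). Gm4076 differed between mice of the same strain: the mice of BXD-12/TyJ had 0.00844, 3.11 and 132 FPKM, where 132 FPKM was mouse OB-547. It also moved with the running mouse number. In the blocks of 100 running numbers that start at 300 and at 600, picked after the values were seen, 9 of 10 early mice had over 20 FPKM, against 13 of 41 other early mice and 10 of 75 later mice, none of which had such numbers. In the other mice of the series it was 38 of 41 inside those blocks and 38 of 115 outside them. The C57BL/6J mice, all inside the second block, had 130, 131 and 141 FPKM, and the DBA/2J mice had 0.00830 FPKM just before that block and 0.0239 and 26.6 FPKM inside it. Rpl23a-ps3 went with the same blocks, with medians of 8.22 FPKM inside and 3.37 FPKM outside in the early mice, 2.58 FPKM in the later mice, and 6.49 and 3.12 FPKM inside and outside in the other mice. The medians of Rps28, a ribosomal protein gene, were 86.4, 49.8, 42.4, 73.4 and 47.2 FPKM in the same order. For Gm4076, Rpl23a-ps3 and Rps28 the set and the running number cannot be told apart.

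**Figure D5:**
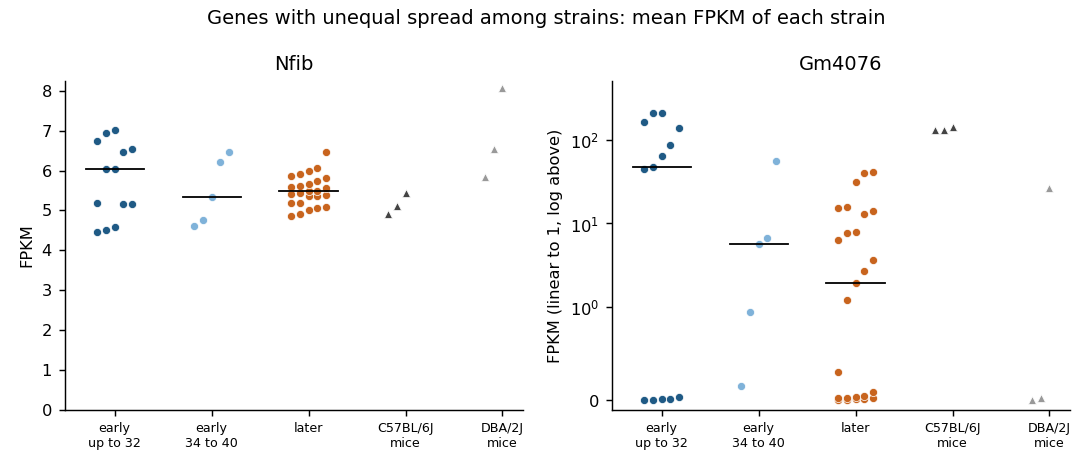
Strain mean FPKM of Nfib (linear axis) and of the pseudogene Gm4076 (axis linear up to 1 FPKM and logarithmic above) in early strains numbered up to 32, early strains numbered 34 to 40 and later strains (dots, with the median as a line), beside single parental mice (triangles). Early strains spread from 4.47 to 7.02 FPKM for Nfib and up to 210 FPKM for Gm4076, and later strains lie within 4.87 to 6.46 FPKM and up to 41.4 FPKM.

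Over all genes the spread was larger in the early set for 10191 and in the later set for 3888, with medians of 0.11 and 0.09 on the log2 scale. At an unadjusted p below 0.05 (7.29% of genes) the spread was lower in the later strains for 946 genes (6.72%) and higher for 80 (0.568%). Without mouse OB-547 the counts of larger spread were 8512 and 5567, and at an unadjusted p below 0.05 the spread was lower for 642 genes and higher for 138, so a part of this excess went with that library. Wdfy1, chosen after its values were seen, went the other way, with a mean distance of 0.18 in the early and 0.73 in the later set (adjusted p = 0.549). It was called in 13 of the 43 fits that left out 1 strain. Each of those fits left out a later strain on the C57BL/6J side. The remaining later strains then split evenly and their median fell in the gap between the groups. Those calls followed from where the median fell, so they add nothing on the spread of Wdfy1. The consistency of mice within strains was alike, with a median intraclass correlation of 0.15 in the early and 0.16 in the later set.

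Gene groups of hypothalamic function showed no member past limma's adjusted threshold in any of the lists below, and their counts at an unadjusted p below 0.05 are given against 2.95% of all genes higher and 5.11% lower. Among 12 genes of the major histocompatibility complex and antigen presentation, 4 were higher and 0 lower, and the median difference was 0.18 against -0.0028 over all genes. The class I gene H2-K1 had 7.56 to 32.7 FPKM in early (median 12.6) and 9.91 to 95.1 FPKM in later strains (median 16.7), a difference of 0.43 (SE 0.16, adjusted p = 0.514), and the class II genes H2-Eb1 and H2-Aa differed by 0.39 and 0.36. A single later strain lay far above the rest for H2-K1, and the ranges otherwise overlapped. The circadian list had 1 of 15 higher (Nr1d2, a repressor of the clock, 0.11), and cholesterol and fatty acid synthesis 1 of 17 higher (Cyp51, a sterol demethylase, 0.09). Nr1d2 lies inside the chromosome 14 stretch described above. Of 12 genes of endoplasmic reticulum stress 4 were lower, namely Xbp1 (-0.09), Pdia4 (-0.12), Sdf2l1 (-0.18) and the locus of Manf (-0.10). Immediate early genes (0 of 9), heat shock chaperones (0 of 10), interferon-stimulated genes (0 of 9) and GABA-A receptor subunits (0 of 13) had none in either direction, and 1 of 9 glucocorticoid-responsive genes was lower (Nfkbia, -0.13).

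The feeding circuit held 1 lower gene of 10, Npy, the appetite-raising peptide of the arcuate nucleus, with 19.9 ± 5.53 FPKM in early (SD, n = 18) and 16.8 ± 3.76 FPKM in later strains (SD, n = 25), a difference of -0.21 (SE 0.09, adjusted p = 0.534). Pomc, the precursor of melanocortin and also of pituitary corticotropin, had 17.5 to 539 FPKM (median 28.4) in early and 14.9 to 2165 FPKM (median 29.4) in later strains, a difference of 0.63 (SE 0.39, adjusted p = 0.657). The 6 anterior pituitary markers measured had no member at an unadjusted p below 0.05, all 6 differences were above zero (median 0.30), and their summed level ran from 6.13 to 6339 FPKM over early and from 2.81 to 7471 FPKM over later strains. The part of pituitary tissue in the Pomc level was not tested. Of 13 other hypothalamic peptides, somatostatin (Sst, -0.17) and the merged locus of oxytocin (-0.19) were lower, and of 10 transcription factors Isl1 (-0.12) and Lhx6 (-0.22) were lower. The Lhx6 difference turned to 0.02 with the running mouse number as a covariate.

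Markers of cell types the tissue can hold were counted in the same way. Of 5 blood genes 4 were lower in later strains: Hbb-bs, the adult beta globin, had 63.8 to 248 FPKM in early (median 121) and 46.1 to 217 FPKM in later strains (median 86.9), a difference of -0.52 (SE 0.14, adjusted p = 0.304), and Hba-a1 (-0.56), Hbb-bt (-0.48) and Alas2 (-0.34), the first enzyme of heme synthesis in red cells, went the same way. With the running mouse number as a covariate Hbb-bs differed by -0.36 and Hba-a1 by -0.35. Of 9 oligodendrocyte genes 4 were lower, the myelin genes Cldn11 (-0.22), Mog (-0.20), Mbp (-0.14) and Cnp (-0.11), and their summed level over the list was 1842 to 3430 FPKM in early and 1859 to 2772 FPKM in later strains. Mog lies in the chromosome 17 stretch with a high share of low p described above. In whole tissue, fewer cells of a type and less RNA per cell cannot be told apart. Neuronal genes had 2 higher (Slc17a6 0.14, Tubb3 0.12) and 1 lower (Slc32a1 -0.14) of 10, astrocyte genes 2 lower of 8 (Agt -0.13, Sox9 -0.09), endothelial genes 1 lower of 7 (Cldn5 -0.16) and ependymal genes 1 lower of 6 (Crym -0.27). Microglia (0 of 9), choroid plexus (0 of 5) and thalamus (0 of 5) markers had none. The Y chromosome genes Ddx3y, Eif2s3y, Kdm5d and Uty lay between -0.06 and 0.04, each with an adjusted p of at least 0.753.

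The 2 largest lists leaned to lower values in the later strains. Of 81 nuclear oxidative phosphorylation subunits 14 were lower and 2 higher (median difference -0.05), and of 76 cytosolic ribosomal proteins 11 were lower and 1 higher (median -0.07). Lower ribosomal protein genes included Rps10 (-0.16), Rps28 (-0.32) and Rps21 (-0.19). These genes are among those moved by mouse OB-547: the summed ribosomal level was 32006 FPKM in the highest early strain against an early median of 12580 FPKM and a later maximum of 14205 FPKM. Rps21 differed by -0.13 without that mouse.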

How the data were processed

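Per the labels and the study's methods, the authors sequenced hypothalamus RNA, mapped it with STAR 2.3.1 (genome mm10), assembled each strain with Cufflinks 2.2.0 guided by known transcripts from UCSC, merged the assemblies with GENCODE M2 by Cuffmerge, normalised with Cuffnorm 2.2.1, and deposited FPKM values filtered on detection and level. All 282 value columns were used for sample assignment or fits, and 0 were left out. The name of 1 mouse was given with 2 strains and it entered no fit. FPKM values hold no counts, so no count model was used.

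Strain means of log2(FPKM + 1) were compared with limma 3.58.1 in R 4.3.3 (later against early, Benjamini-Hochberg over all 14079 genes). Spread was tested as the absolute distance of each strain mean from its set's median, and parents over the 281 mice of known strain. Each strain was assigned to a parental side by the log2 midpoint. The functions were tested on simulated data. Python 3.11.15 and GENCODE M21 gave positions, alignments and sequences. Members and gene lists were chosen with earlier results of these data known. Named were the genes with the smallest adjusted p (8), those past a threshold, every member of the stock variant, copy number and Y chromosome lists, and up to 4 of each other list by p, of which 1 is not reported here. Others, such as the split loci and chromosomal stretches, were chosen after their values were seen. Mice of a strain share its genotype. Labels do not say whether cages or litters were shared, so p-values cover the spread between strains as sampled. Alternatives were another pseudocount, a filter, quantile normalisation, limma trend, a rank test, mapping and running number covariates, a random strain block, and left-out strains or mice.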

Additional observations from a re-analysis of the deposited data

How the results depend on the processing

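The absence of adjusted calls on level held with a pseudocount of 0.1, a mean FPKM of at least 1, quantile normalisation, limma trend, the Wilcoxon test, running mouse number as a covariate, early strains up to number 32 alone, and without mouse OB-547. It did not hold on single mice with strain as a random block (77 genes) or with mapping covariates (3 genes: Ctnnbl1, Gm8420 and XLOC_026862). With mapping covariates 2207 of 14079 genes had an unadjusted p below 0.05 in limma, against 1135 in the main fit. Of the 2207, 850 were higher and 1357 lower in the later strains. The cause of these changes was not tested. Leaving out each strain gave 0 to 5 calls, above zero in 9 of 43 fits (5 without BXD44, 5 without BXD75, 4 without BXD48, 3 each without BXD-14/TyJ and BXD-20/TyJ, 1 each without BXD-5/TyJ, BXD-12/TyJ, BXD-34/TyJ and BXD-38/TyJ), and Gm8420 was in all 9. Transcripts gave 2 calls with a pseudocount of 0.1. Quantile normalisation split the genes of low p into 536 higher and 590 lower, against 415 and 720, and turned the median difference from -0.0028 to 0.0024, with 7314 genes above and 6765 below zero against 6714 and 7365. Spread calls numbered 1 with a pseudocount of 0.1, 0 after quantile normalisation, 1 without mouse OB-547, 1 with early strains up to number 32, and 0 to 3 over left-out strains and mice (0 without replicate 1, 2 or 3). Parental calls numbered 590 to 844 when a mouse of either or both parents was left out, and 1206 without mouse OB-547, alternatives chosen after seeing the data.

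Reversed signs were those of small differences. Ube2e1 was 0.0177 after quantile normalisation, 0.0109 without mouse OB-547, 0.00803 with early strains up to number 32 and 0.00898 with the running number, and -0.0217 to 0.0153 over left-out strains and mice. Kdm5d was 0.00934 with early strains up to 32, 0.00201 with mapping covariates, 0.0330 with the running number, 0.00225 without BXD-15/TyJ and BXD-11/TyJ, and -0.0326 to 0.0209 over left-out ones. Ddx3y ranged from -0.00964 to 0.0881 and Rpl23a from -0.0822 to 0.00920 over left-out ones. With the running number Rpl23a was 0.0274, Lhx6 0.0223 and Eif2s3y 0.0304. Over the 66 genes, 692 of 724 other values kept direction and call. No paired analysis was possible because replicate mice of different strains share no animal or pairing in the labels.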
